A study of Mus musculus with 6 samples.

Results

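The synthases of hyaluronan (Has1, Has2, Has3), the enzyme that supplies one of its sugars (Ugdh), its receptor Cd44, the secreted binding protein Tnfaip6, and the breakdown genes Hyal1, Hyal2 and Cemip were followed by their gene symbols in a table of 21240 genes, and all 9 were found in it. The set was taken up because Has2 and Tnfaip6 are among the genes that rise most after TGFβ1 in these same libraries, so the values of both genes are given as a description, with no p-value. NMuMG, an established mouse mammary gland epithelial cell line, was kept without serum and insulin for 6 h and then given vehicle for 2 h (veh), 5 ng/ml TGFβ1 for 2 h (TGFb2h) or 5 ng/ml TGFβ1 for 12 h (TGFb12h). Each group holds 2 biological replicates, and stranded total RNA was sequenced in 6 libraries. No genetic change or other agent is given for any group, so the groups differ in TGFβ1 and in time. Vehicle was collected at 2 h only, and therefore in any comparison of 12 h with vehicle the effect of TGFβ1 and that of the longer time in culture cannot be told apart. In comparisons of TGFb12h with TGFb2h, the longer treatment and the longer time in culture cannot be told apart either. The labels and the study's methods call the replicates biological, and the p-values measure the spread between these libraries.

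Between 14705886 and 23786993 reads were counted per library, and 11080 genes reached 2 CPM (reads scaled per library to a common total) in at least 2 libraries and were tested. The CPM given here use library sizes corrected with TMM factors of 0.961 to 1.07. Replicates correlated over the tested genes with r of 0.978 to 0.993 on the log2 CPM scale, lowest in TGFb2h. The TGFβ target genes Smad7 and Skil rose at both times, Smad7 by 2.07 at 2 h and 2.65 at 12 h on the log2 scale (edgeR quasi-likelihood adjusted p = 0.00484 and 0.000589). Of the 5 epithelial markers checked, 4 were expressed, with summed CPM of 3299 to 3939 in veh, 4690 to 4784 in TGFb2h and 9889 to 9912 in TGFb12h, whereas Epcam stayed at 2 to 16 reads in every library. Krt8 and Krt18 carried that sum and rose at 12 h by 1.63 and 1.53 (adjusted p = 0.000114 and 0.000275), and Cdh1 had -0.07 (adjusted p = 0.762). Fibroblast markers summed to 1.97 to 3.95 CPM and leukocyte markers to 4.36 to 6.95 CPM over the 6 libraries, and the leukocyte sum was carried by Cd68 at 95 to 124 reads per library, with Itgam at 1 to 13 reads and Ptprc and Adgre1 at 4 or fewer. Endothelial markers summed to 0.118 to 0.191 CPM in veh and to 1.74 to 1.95 CPM in TGFb12h, a rise in Cdh5 alone, since Pecam1 and Kdr had at most 2 reads in any library. Their part in the results was not tested. In bulk RNA, fewer cells that express a gene and less of its RNA per cell cannot be told apart.

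Hyaluronan is a long, unsulfated sugar chain of the extracellular matrix. Unlike other glycosaminoglycans it is made at the plasma membrane, where the Has enzymes join UDP-glucuronic acid and UDP-N-acetylglucosamine and extrude the growing chain. Cells bind it through receptors such as Cd44, the secreted protein Tnfaip6 (TSG-6) links it to proteins of the inter-alpha-trypsin inhibitor family, and hyaluronidases cut it. Hyaluronan-rich matrix accompanies epithelial-mesenchymal transition, the change of cell state that TGFβ1 is known to start in NMuMG cells.

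Promoters were taken from RefSeq (build GRCm38.p6) for 7 of the 9 members, from 250 bases before to 50 bases after the start site, and each occurred exactly once in the NCBIM37 (mm9) genome. Those of Tnfaip6, Hyal2, Hyal1 and Cemip are shown because these genes gave the largest changes among the tested members with a promoter. Hyal2 (chr9:107471244-107471543, plus strand), Hyal1 (chr9:107479031-107479330, plus strand), Cemip (chr7:91234966-91235265, minus strand) and Tnfaip6 (chr2:51893383-51893682, plus strand) are written 5′ to 3′ on the strand of the gene. Capitals mark matches, on either strand, to TGANTCA (AP-1 core), CAGAC (Smad core, GTCTG on the other strand) and TATAAA (the box of many core promoters), letter patterns that do not overlap each other here.

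Tnfaip6: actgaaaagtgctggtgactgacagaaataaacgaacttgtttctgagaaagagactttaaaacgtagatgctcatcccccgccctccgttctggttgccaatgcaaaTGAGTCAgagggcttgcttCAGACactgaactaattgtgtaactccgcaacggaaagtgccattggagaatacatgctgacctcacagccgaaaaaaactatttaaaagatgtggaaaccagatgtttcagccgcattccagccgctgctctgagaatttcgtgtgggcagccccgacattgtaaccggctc
Hyal2: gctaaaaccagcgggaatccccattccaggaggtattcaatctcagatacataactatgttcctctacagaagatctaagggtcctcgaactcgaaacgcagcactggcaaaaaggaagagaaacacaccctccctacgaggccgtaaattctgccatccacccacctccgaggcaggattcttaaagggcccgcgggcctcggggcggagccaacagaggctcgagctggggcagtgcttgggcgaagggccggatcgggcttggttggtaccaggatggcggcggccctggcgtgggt
Hyal1: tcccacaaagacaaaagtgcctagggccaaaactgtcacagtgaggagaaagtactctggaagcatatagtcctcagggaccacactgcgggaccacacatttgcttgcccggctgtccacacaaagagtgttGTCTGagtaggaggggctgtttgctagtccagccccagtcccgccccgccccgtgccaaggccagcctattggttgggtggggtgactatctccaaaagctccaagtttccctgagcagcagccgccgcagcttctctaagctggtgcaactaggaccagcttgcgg
Cemip: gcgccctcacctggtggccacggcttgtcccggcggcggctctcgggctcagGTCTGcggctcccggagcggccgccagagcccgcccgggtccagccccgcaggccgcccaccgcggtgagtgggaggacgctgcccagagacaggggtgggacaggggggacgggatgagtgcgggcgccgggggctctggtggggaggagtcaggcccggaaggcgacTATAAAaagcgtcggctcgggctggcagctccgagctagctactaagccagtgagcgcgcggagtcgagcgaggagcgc

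Tnfaip6 held 1 AP-1 core, at -142 from the start site, and 1 Smad core, at -123. A Smad core stood at -117 in Hyal1 and at -198 in Cemip, and Cemip held TATAAA at -29. None of the 3 patterns was in the Hyal2 window, nor in those of Cd44 and Ugdh, and Has1 held 2 Smad cores. Over all 32851 promoters of this length, 7.81% held the AP-1 core, 49.6% the Smad core and 13.6% TATAAA, so the Smad core was in about as many promoters as not. GC content was 47.0% in Tnfaip6, 58.3% in Hyal2, 57.0% in Hyal1 and 73.7% in Cemip, against a median of 52.7% over all promoters.

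Has2, the synthase best known for the matrix of developing and mesenchymal tissues, went from 1 read or none per library to the highest rise of all tested genes. It had 1 and 0 reads in the veh libraries, 4 and 4 in TGFb2h, and 1909 and 1601 in TGFb12h. These were 0.0589 and 0 CPM, 0.202 and 0.202 CPM, and 83.2 and 82.2 CPM, in the same order. Both 12 h libraries stood far above all the others, and both 2 h libraries lay above both vehicle libraries at a level of a few reads. The summed reads at 12 h were 2704 times those in veh, relative to library size, with a 95% counting interval of 485 to 106824 that is wide because vehicle held 1 read. Against 2 h the ratio was 409 (208 to 949), and the ratio of 2 h to vehicle was 6.60 (0.885 to 293), which rests on 8 reads against 1. Counting intervals cover the counting error only. By fitted log2 fold change, Has2 ranked 1st of 11080 genes at 12 h and 95th at 2 h. The fitted value at 12 h was 11.12, and 9.26 with a prior count of 2. The gene lies on mouse chromosome 15 at chr15:56497182-56526094, minus strand (NCBIM37).

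Has3 and Has1, the other two synthases, stayed at or near the detection limit and were below the filter. Has3, on chromosome 8 (chr8:109394142-109406802), had 5 and 3 reads in veh, 16 and 10 in TGFb2h, and 14 and 25 in TGFb12h. All 4 treated libraries were above both vehicle libraries, at 0.505 to 1.28 CPM against 0.191 and 0.294 CPM, and the 2 treated times overlapped. The ratio to vehicle was 2.68 (1.18 to 6.86) at 2 h and 3.76 (1.73 to 9.30) at 12 h. When no filter was applied, Has3 had a log2 fold change of 1.41 at 2 h (adjusted p = 0.257) and rose by 1.91 (SE 0.635, adjusted p = 0.0470) at 12 h. Has1 had 2 reads in 1 library of TGFb2h, 2 in 1 of TGFb12h and 0 in the other 4, where a count of 0 allows up to 0.152 to 0.191 CPM depending on the library. A difference in Has1 was not detectable at this depth.

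The shares of the 3 synthases in their summed reads are given as a description, since Has2 was chosen by its rise. Has3 gave 83.3% and 100% of the summed Has1, Has2 and Has3 reads in veh, and 80.0% and 62.5% in TGFb2h. Those shares rest on 6, 3, 20 and 16 reads, and the exact (Clopper-Pearson) 95% interval for Has2 in the first veh library ran from 0.421% to 64.1%. In TGFb12h, Has2 gave 99.2% (98.7 to 99.5) of 1925 reads and 98.5% (97.7 to 99.0) of 1626 reads, and Has3 0.727% and 1.54%. The lower share of Has3 at 12 h goes with more Has2 reads, since Has3 itself had 16 and 10 reads in TGFb2h and 14 and 25 in TGFb12h.

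**Figure D1:**
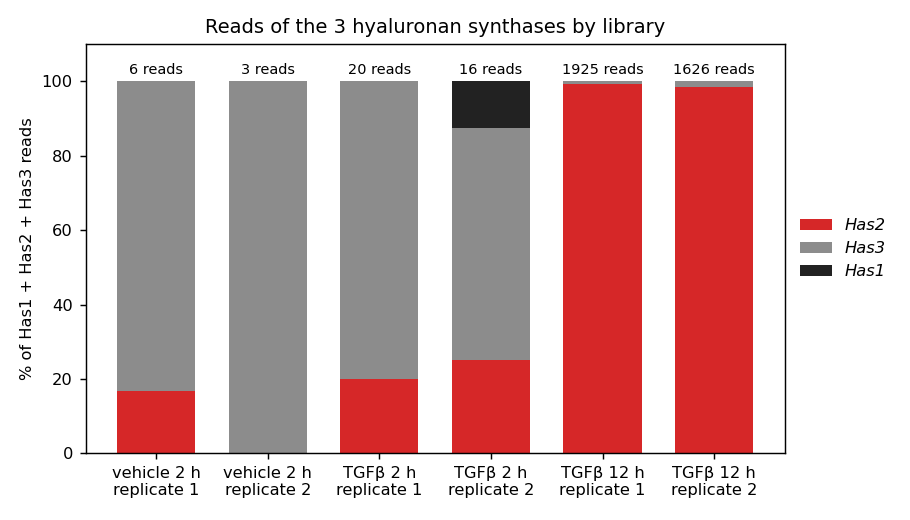
Share of the summed Has1, Has2 and Has3 reads (percent, y axis) taken by each synthase in each of the 6 libraries (x axis, vehicle 2 h being veh), with the number of reads printed above each bar. Has3 makes up most of the 3 to 20 reads of the veh and TGFb2h libraries, and Has2 makes up 99.2% and 98.5% of the 1925 and 1626 reads of the TGFb12h libraries.

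Has2os, the antisense RNA whose start site is 4595 bp from that of Has2 on the opposite strand, had 1 and 0 reads in veh, 1 and 1 in TGFb2h, and 63 and 38 in TGFb12h. The ratio of 12 h to vehicle was 77.8 (13.7 to 3103). At 12 h there were 3.30 and 2.37 Has2os reads per 100 Has2 reads. The annotations of both genes share 182 exon bases. Reads had been assigned by strand, according to the study's methods. The gene on the other side of Has2, Slc22a22, had 0 reads in all 6 libraries.

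Ugdh, the dehydrogenase that makes UDP-glucuronic acid, had the highest mean CPM of the members in every group and fell at 12 h. It stood at 681 and 605 CPM in veh, 795 and 688 in TGFb2h, and 469 and 502 in TGFb12h. Both 12 h libraries were below all the others, and the 2 h libraries lay just above the vehicle libraries. The means were 643 ± 54.0, 742 ± 75.5 and 485 ± 22.7 CPM (SD, n = 2 each). Ugdh fell 1.33-fold at 12 h against vehicle (log2 fold change -0.41, SE 0.121, adjusted p = 0.0343) and fell by 0.61 (SE 0.122, adjusted p = 0.0100) from 2 h to 12 h. At 2 h against vehicle its log2 fold change was 0.21 (SE 0.121, adjusted p = 0.313). The fall against vehicle lost its call when any 1 of 4 libraries was left out, with adjusted p of 0.173 and 0.0580 without veh replicate 1 or 2 and 0.177 and 0.114 without TGFb12h replicate 1 or 2. From 2 h to 12 h the adjusted p was 0.0903 and 0.0652 without the latter pair.

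Cd44, the main cell-surface receptor of hyaluronan, rose at 12 h and did not pass the test at 2 h. Its libraries read 323 and 265 CPM in veh, 274 and 255 in TGFb2h, and 469 and 419 in TGFb12h. The vehicle and 2 h groups overlapped, and both 12 h libraries were above every other library. Cd44 rose 1.51-fold at 12 h against vehicle (log2 fold change 0.60, SE 0.132, adjusted p = 0.0110) and by 0.75 (SE 0.132, adjusted p = 0.00644) from 2 h to 12 h. The log2 fold change at 2 h was -0.15 (SE 0.131, adjusted p = 0.487). Without veh replicate 2 the adjusted p at 12 h was 0.0716, and without TGFb12h replicate 1 it was 0.0917 against vehicle and 0.0648 against 2 h. The counts are per gene and do not separate the splice forms for which Cd44 is known.

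Tnfaip6, whose product binds hyaluronan and transfers heavy chains of inter-alpha-trypsin inhibitor to it, was absent from the vehicle counts and present in all 4 treated libraries. It had 0 and 0 reads in veh, 70 and 49 in TGFb2h, and 75 and 106 in TGFb12h, which were 3.54, 2.47, 3.27 and 5.45 CPM in the treated libraries. The treated groups overlapped, at 3.01 ± 0.757 and 4.36 ± 1.54 CPM (SD, n = 2 each), and the ratio of 12 h to 2 h was 1.42 (1.12 to 1.80). Against a floor of 3 reads over both vehicle libraries, Tnfaip6 was at least 32.7-fold higher at 2 h and at least 46.5-fold higher at 12 h. By fitted log2 fold change it ranked 1st of 11080 genes at 2 h and 6th at 12 h. With 0 reads in veh the fitted value depends on the prior count, and was 8.85 at 2 h but 4.89 with a prior count of 2. Of the pair that led to the choice of these genes, Tnfaip6 at 2 h thus overlapped its 12 h level, whereas Has2 at 2 h had 4 reads in each library.

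Hyal2, a membrane-anchored hyaluronidase that cuts long chains at the cell surface, and Hyal1, a lysosomal hyaluronidase that cuts the resulting pieces further, rose at both times. Hyal2 stood at 26.6 and 28.5 CPM in veh, 65.1 and 74.2 in TGFb2h, and 83.2 and 90.4 in TGFb12h. Hyal1 stood at 9.13 and 10.3 CPM, 18.6 and 21.8 CPM, and 23.6 and 26.6 CPM, in the same order. For both genes the 3 groups did not overlap and followed the order veh, TGFb2h, TGFb12h. Hyal2 rose 2.53-fold at 2 h (log2 fold change 1.34, SE 0.117, adjusted p = 0.00106) and 3.15-fold at 12 h (1.66, SE 0.117, adjusted p = 0.000136). Hyal1 rose 2.09-fold at 2 h (1.06, SE 0.158, adjusted p = 0.00707) and 2.59-fold at 12 h (1.37, SE 0.159, adjusted p = 0.000779). The step from 2 h to 12 h was 0.32 on the log2 scale for Hyal2 (SE 0.113, adjusted p = 0.0707) and 0.31 for Hyal1 (SE 0.152, adjusted p = 0.160), and neither passed the threshold. With replicate number as a block, the Hyal2 step passed, at an adjusted p of 0.0195. Without veh replicate 1 the adjusted p of Hyal1 at 2 h was 0.0608.

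Both genes lie in 1 cluster on chromosome 9, with start sites 7.8 kb apart (Hyal2 at chr9:107471448-107475107, Hyal1 at chr9:107479258-107485174, both on the plus strand). In the GENCODE annotation of NCBIM37, Hyal1 shares 1947 of its 3804 exon bases with Nat6 on the same strand and 159 with Hyal3. How reads in shared exons were assigned is not given in the sources used here, and the Hyal1 values are uncertain to that extent. Hyal2 shares no exon base with Hyal1. Nat6 had log2 fold changes of 0.70 at 2 h (adjusted p = 0.0577) and 0.45 at 12 h (adjusted p = 0.104), and Tusc2, on the other side of Hyal2, had 0.24 and 0.33 (adjusted p = 0.320 and 0.111).

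Cemip, a secreted and membrane-associated protein needed for hyaluronan depolymerisation in fibroblasts, was the member that fell most. It stood at 10.4 and 15.9 CPM in veh, 18.2 and 18.9 in TGFb2h, and 3.27 and 5.19 in TGFb12h. The 2 h libraries lay above both vehicle libraries and the 12 h libraries below them, with no overlap among the 3 groups. Cemip fell 3.12-fold at 12 h against vehicle (log2 fold change -1.64, SE 0.293, adjusted p = 0.00470) and 4.40-fold from 2 h to 12 h (-2.14, SE 0.293, adjusted p = 0.00258). The value at 2 h against vehicle, 0.49 (SE 0.275, adjusted p = 0.286), did not pass, and its veh libraries differed from each other by more than those of TGFb2h. Both falls passed the threshold in every alternative run, with the highest adjusted p at 0.0380 and 0.0304.

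**Figure D2:**
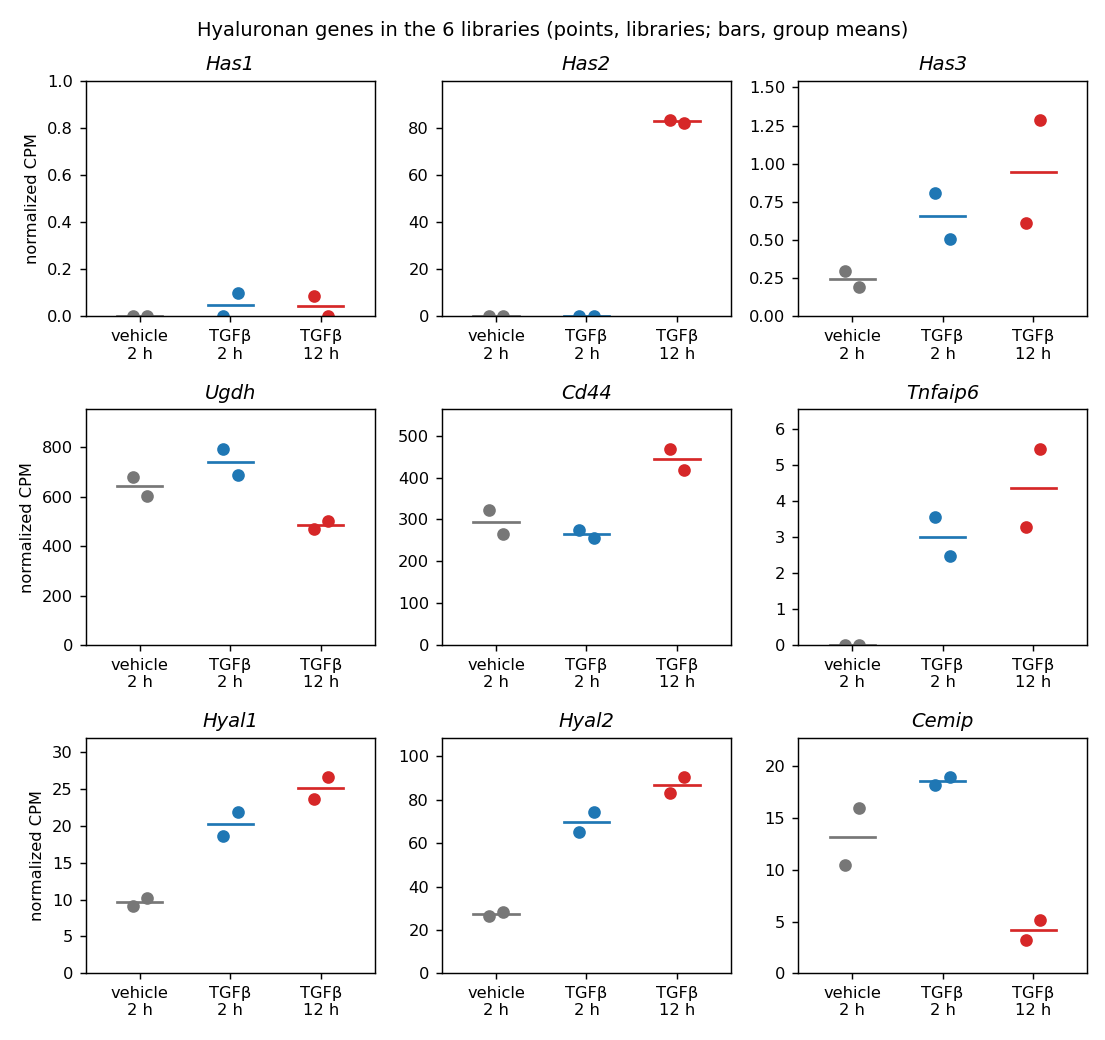
Level of each of the 9 members (TMM-normalised CPM, linear y axis with its own scale in each panel) in the 6 libraries, grouped on the x axis as vehicle 2 h (veh), TGFβ 2 h (TGFb2h) and TGFβ 12 h (TGFb12h), with points for libraries and horizontal bars for group means. Has2 is near 0 in 4 libraries and at 83.2 and 82.2 CPM in TGFb12h, Tnfaip6 is at 0 in both veh libraries, and Cemip is lowest in TGFb12h.

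**Figure D3:**
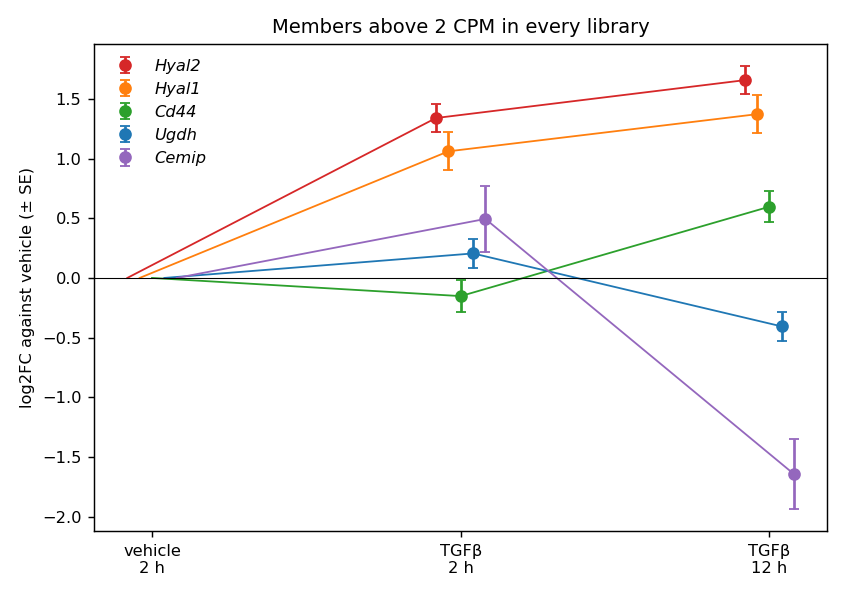
Log2 fold change against vehicle (y axis) at 2 h and 12 h for the 5 members with at least 2 CPM in all 6 libraries, with bars of 1 SE from the edgeR fit. Hyal2 and Hyal1 are above 1 at both times, Cd44 is above 0 at 12 h, and Ugdh and Cemip are below 0 at 12 h.

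Among the members, 5 reached 2 CPM in all 6 libraries (Ugdh, Hyal1, Hyal2, Cemip and Cd44). Has2 and Tnfaip6 passed the filter only through treated libraries, and Has1 and Has3 did not pass it. At 2 h against vehicle, 2 of these 5 rose and none fell, where 9.91% of all tested genes rose and 5.25% fell. At 12 h against vehicle, 3 rose and 2 fell, beside 21.8% and 21.5% of all tested genes. From 2 h to 12 h, 1 rose and 2 fell, beside 15.2% and 18.9%. Without veh replicate 1, 1 of the 5 was called at 2 h (Hyal2). Without veh replicate 2 or TGFb12h replicate 1, 3 were called at 12 h (Hyal1, Hyal2 and Cemip), and without the latter library 1 was called from 2 h to 12 h (Cemip). The median log2 fold change of the 5 was 0.49, 0.60 and 0.31 in these 3 comparisons, and that of all tested genes was -0.01, 0.02 and 0.01. Scaling to total counts alone, without TMM factors, shifted the median of all tested genes to -0.12 at 2 h and -0.11 at 12 h and lowered the share of calls that were rises from 65.4% to 46.7% at 2 h and from 50.3% to 37.5% at 12 h. None of the 5 members at 2 CPM in all 6 libraries changed direction with it. The comparisons share libraries, so their counts are not independent of each other.

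Levels can be compared between genes only per length, and for that CPM were divided by the exon length in kilobases (GENCODE, NCBIM37), which may differ from the transcripts the authors counted. In veh the order of mean levels was Ugdh at 94.6, Cd44 at 42.9, Hyal2 at 14.5, Hyal1 at 2.55 and Cemip at 1.08 CPM per kb, with Has3 at 0.0411 and Has2 at 0.00695. At 2 h, Hyal2 (34.4 and 39.2 CPM per kb) overlapped Cd44 (40.0 and 37.2), so these neighbours in the order did not differ beyond the spread, and Tnfaip6 (2.07 and 1.45) overlapped Cemip (1.49 and 1.55). At 12 h, Ugdh (69.0 and 73.8) and Cd44 (68.5 and 61.2) were nearest to each other, followed by Hyal2 at 45.8 and Has2 at 19.5 CPM per kb. At 12 h Has2 thereby stood above Hyal1 at 6.60, Tnfaip6 at 2.55 and Cemip at 0.346.

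The remaining members lie at chr17:17980292-17992152 (Has1), chr5:65804441-65827185 (Ugdh), chr2:102651298-102741822 (Cd44) and chr7:91081367-91235012 (Cemip) on the minus strand and at chr2:51893529-51912206 (Tnfaip6) on the plus strand of NCBIM37. Counted genes next to them were read beside them. Both neighbours of Tnfaip6 rose, Rif1 by 0.89 at 2 h and 1.48 at 12 h (adjusted p = 0.00661 and 0.000284) and Nmi by 0.75 and 0.90 (adjusted p = 0.0266 and 0.00473). Of all tested genes, 9.91% rose at 2 h, and 21.8% rose and 21.5% fell at 12 h. Next to Cemip, Mesd rose by 0.60 at 12 h (adjusted p = 0.00307) and Abhd17c had -0.22 (adjusted p = 0.136), whereas Cemip fell. Beside Cd44, Pdhx fell by 0.49 at 12 h (adjusted p = 0.00666). Neither Lias nor Smim14, beside Ugdh, passed the threshold at either time.

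The genes closest to Has2 in both log2 fold changes against vehicle were Lce1g, Prss46 and F13a1, at Euclidean distances of 2.84, 2.89 and 2.94 on the log2 scale over the 2 comparisons. Lce1g, a cornified envelope gene, had 0 and 1 reads in veh, 2 and 2 in TGFb2h, and 255 and 290 in TGFb12h. Closest to Tnfaip6 were Dusp2, Cldn4 and Megf10, at 0.81, 1.22 and 1.43. Cldn4, a tight-junction claudin, had 2 and 1 reads in veh, 484 and 286 in TGFb2h, and 1728 and 1097 in TGFb12h. With vehicle counts of 2 or fewer in all 6 of these genes, the fitted fold changes and distances depend on the prior count.

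Beyond the members, 52 further genes of precursor supply, hyaluronan receptors, binding proteins, breakdown and Cd44 partners were in the table, and 31 were tested. Stab1 and Hmmr reached 2 CPM in 4 libraries only and Ambp and Hapln4 in 2, so these genes get no p-value and stand outside the counts, which cover the 27 genes at 2 CPM in all 6 libraries. At 2 h, 5 of the 27 rose, 2 fell and 20 did not pass, with a median log2 fold change of -0.01, beside 9.91% and 5.25% of all tested genes that rose and fell. At 12 h, 8 rose, 11 fell and 8 did not pass, with a median of -0.04, beside 21.8% and 21.5%. From 2 h to 12 h, 6 rose and 9 fell, with a median of -0.23, beside 15.2% and 18.9%. Of the 7 calls at 2 h, 3 were made under every alternative run (Hk2, Tlr2 and Mmp14), and of the 19 at 12 h, 12 were. The count at 2 h was 3 without veh replicate 1, 4 without veh replicate 2, without either TGFb12h library or with only the 2 groups compared, and 13 with replicate number as a block. At 12 h the count was 12 without TGFb12h replicate 2. From 2 h to 12 h the count of 15 was 8 and 9 without TGFb12h replicate 1 and 2. In either direction, 15.2%, 43.3% and 34.1% of all tested genes were called in these 3 comparisons.

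In precursor supply, 1 of 11 genes rose and 1 fell at 2 h, and 3 rose and 4 fell at 12 h (15.2% and 43.3% of all tested genes were called). Hk2, a hexokinase at the entry of glucose into metabolism, rose by 3.08 at 2 h and 3.07 at 12 h on the log2 scale (adjusted p = 0.000200 and 4.95e-05). Uap1, which makes UDP-N-acetylglucosamine, rose by 1.29 at 12 h (adjusted p = 0.000376). Gfpt1, the entry enzyme of the hexosamine pathway, fell by 1.26 (adjusted p = 0.00127), and Ugp2, which makes UDP-glucose for Ugdh, fell by 1.04 (adjusted p = 0.0142), both at 12 h. At 2 h Uap1, Gfpt1 and Ugp2 had values of 0.35, -0.47 and -0.54, none of which passed, though all were called with replicate number as a block. Gfpt1 was also called there with DESeq2, and Ugp2 without TGFb2h replicate 1. The call for Ugp2 was lost without veh replicate 1 or either TGFb12h library (highest adjusted p = 0.110).

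Of the receptors other than Cd44, only Tlr2 and Tlr4 were at 2 CPM in all 6 libraries. Stab1, a scavenger receptor for hyaluronan, had 3 and 5 reads in veh, 49 and 43 in TGFb2h, and 100 and 93 in TGFb12h, which were 0.177 and 0.319, 2.48 and 2.17, and 4.36 and 4.78 CPM. It reached 2 CPM in the treated libraries only, in which its levels were high, and the 3 groups did not overlap. Tlr2 rose by 1.97 at 2 h (adjusted p = 0.00235) and had -0.58 at 12 h (adjusted p = 0.0760). At 12 h it was called with replicate number as a block and without TMM factors. Tlr4 fell by 1.08 at 2 h and 1.83 at 12 h (adjusted p = 0.0369 and 0.00209). The fall of Tlr4 at 2 h was lost without any 1 of the veh or TGFb12h libraries and with only the 2 groups compared (highest adjusted p = 0.172). Both are innate immune receptors that respond to hyaluronan fragments. Hmmr, a hyaluronan-binding protein of the mitotic spindle, stood at 53.8 and 112 CPM in veh, 45.7 and 87.6 in TGFb2h, and 1.09 and 1.70 in TGFb12h. Both 12 h libraries lay far below the other 4, and the veh and TGFb2h groups overlapped.

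Among the 4 binding proteins counted no gene passed at 2 h, and 2 rose and 2 fell at 12 h (15.2% and 43.3% of all tested genes were called). With replicate number as a block, Vcan and Itih2 passed at 2 h. Vcan, the matrix proteoglycan versican, rose by 1.05 (adjusted p = 0.00271), and Habp4 rose by 0.44 (adjusted p = 0.0485), a call made in 4 of the 14 alternatives (highest adjusted p = 0.281). Itih2, a heavy chain of inter-alpha-trypsin inhibitor, fell by 2.00 (adjusted p = 0.0158) and Habp2, a hyaluronan-binding protease, by 1.82 (adjusted p = 0.000151). The call for Itih2 was lost without veh replicate 1 or TGFb12h replicate 2 (highest adjusted p = 0.108). Tmem2, the cell-surface relative of Cemip and the only tested further hyaluronidase gene, rose by 1.15 at 2 h and 0.62 at 12 h (adjusted p = 0.0109 and 0.0381). Its rise at 2 h was lost without either veh library (highest adjusted p = 0.0726), and that at 12 h without any 1 of the veh or TGFb12h libraries or without TMM factors (highest adjusted p = 0.185). Of the 3 exoglycosidases, which trim the ends of the fragments, Hexa fell by 0.54 at 12 h (adjusted p = 0.0130), a call lost without veh replicate 1 or either TGFb12h library (highest adjusted p = 0.0970).

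Of 6 partners of Cd44, 2 rose at 2 h, and 2 rose and 2 fell at 12 h (15.2% and 43.3% of all tested genes were called). Msn and Ezr, which link the tail of Cd44 to actin, went opposite ways at 12 h, where Msn rose by 2.84 (adjusted p = 0.000151) and Ezr fell by 1.62 (adjusted p = 0.000236). Msn had already risen by 0.96 at 2 h (adjusted p = 0.0226), a call lost without veh replicate 1, without either TGFb12h library or with only the 2 groups compared (highest adjusted p = 0.0783). Mmp14, a membrane protease that sheds Cd44, rose by 0.87 at 2 h and 1.72 at 12 h (adjusted p = 0.00532 and 0.000139). Ank3, an ankyrin, fell by 0.47 at 12 h (adjusted p = 0.0337), a call lost without veh replicate 1 or either TGFb12h library (highest adjusted p = 0.185).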

How the data were processed

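Stranded total RNA of 6 NMuMG libraries was sequenced in 50-base single reads. According to the study's methods the authors filtered reads, aligned them to mm9 with subjunc (Subread), kept unique alignments, removed duplicates with SAMtools 0.1.19 and counted exons of UCSC KnownGene by strand with featureCounts. Per gene, the deposited file gives read counts without normalization, and all were whole numbers. Columns were assigned to samples from the labels.

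Tests used edgeR 4.0.16 under R 4.3.3 (TMM, 1 quasi-likelihood fit of 3 groups, prior count 0.125, Benjamini-Hochberg adjustment over all genes tested per comparison, called under 0.05), and scripts were tested on simulated data. Alternatives were limma 3.58.1 (voom), DESeq2 1.42.0 or its size factors, total counts, no filter, 10 counts in every library, a replicate block, 2 groups only, a prior count of 2 for fold changes, and each library left out. Positions and exon lengths are from GENCODE for NCBIM37 (18790 genes matched by symbol, 1628 by synonym, 822 not placed). Replicates of a group differed by more than counting noise.

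The members and gene lists were chosen with earlier results of these data known. The text names every member, within each pathway role up to 2 called genes per direction with the largest change, the 3 genes nearest to Has2 and to Tnfaip6, chromosome neighbours and TGFβ targets, and some of these are not reported here. Protein sequences were not used here.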

Additional observations from a re-analysis of the deposited data

Results flagged for a closer look

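In 3 members the level at 12 h differed from that at 2 h in the comparison of the 2 treated groups in the edgeR fit. With no vehicle at 12 h, a changed response to TGFβ1 and the longer time in culture cannot be told apart in it. Cemip was lower at 12 h by 2.14 on the log2 scale (a difference of -2.14, adjusted p = 0.00258). Its libraries lay above vehicle at 2 h, where the change was not called (0.49, adjusted p = 0.286), and below vehicle at 12 h. Ugdh had a difference of -0.61 (adjusted p = 0.0100), a call lost without TGFb12h replicate 1 or 2 (differences of -0.57 and -0.66). Its levels lay just above vehicle at 2 h, where the change was not called (0.21, adjusted p = 0.313), and below vehicle at 12 h. Cd44 had a difference of 0.75 (adjusted p = 0.00644), with overlap with vehicle at 2 h and none at 12 h. The call for Cd44 was lost without TGFb12h replicate 1 (a difference of 0.66). Has2 and Tnfaip6 were not tested in this way because they were chosen by their rises.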

How the results depend on the processing

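None of the 5 members at 2 CPM in all 6 libraries changed direction under any alternative. With Has2 and Tnfaip6 included, which were chosen by their rises so that the counts support nothing, 3, 7 and 4 members were called at 2 h, at 12 h and between the treated times (15.2%, 43.3% and 34.1% of all tested genes), and leaving out single libraries gave 4 to 7 at 12 h and 1 to 4 between the treated times. Has2 was not tested there without a TGFb12h library, since the filter needs 2 libraries, nor at 10 counts in every library, where Tnfaip6 and Stab1 also dropped out. The counts over all 31 tested further pathway genes include Stab1, Hmmr and Ambp, which passed the filter in some libraries only, and support nothing either. At 2 h, 8 were called, against 14 with the replicate block, 5 with only the 2 groups compared and 4 to 9 with single libraries left out. Between the treated times 18 were called, and 9 to 16 with single libraries left out. The log2 fold changes of the 5 members at 2 CPM in all 6 libraries lost the call in 10 alternative values and gained it in 1. The others kept it or stayed uncalled. For Has2 and Tnfaip6, 19 alternative values moved by more than the larger replicate SD of the compared groups (log2 of CPM + 0.25). Some of these moved by less than the SE of the fit. As both genes were chosen by their rises, their values are a description only. For Has2 at 12 h the alternative values ran from 9.26 to 13.66 around 11.12, and for Tnfaip6 at 2 h from 4.89 to 9.07 around 8.85.

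Replicate numbers are shared across groups, and deviations of same-numbered libraries correlated at 0.708 (veh with TGFb2h), 0.263 (veh with TGFb12h) and 0.392 (between treated groups). With 2 pairs and no shared batch in the labels, they were treated as numbers only. The replicate block raised the calls over all genes at 2 h from 1098 rises and 582 falls to 1813 and 1409, and among members it added the Hyal2 step. With only the 2 groups compared, the calls at 2 h were 635 rises and 247 falls, and without veh replicate 1 they were 493 and 125. Counts of 0 to 25 limit what can be said of Has1, Has3 and the vehicle level of Has2 and Tnfaip6.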

Other observations

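Cdh5, the vascular cadherin and 1 of the 3 endothelial markers, was singled out after its values were seen. It had 1 and 2 reads in veh, 6 and 5 in TGFb2h, and 39 and 36 in TGFb12h, and both 12 h libraries lay above all the others. None of the 3 endothelial markers reached 2 CPM in 2 libraries. Pecam1 had 1 and 1, 0 and 0, and 1 and 2 reads in the same order, and Kdr had 2 reads in 1 TGFb2h library and 0 in the other 5.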
